A study of Mus musculus with 12 samples.

Results

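The comparison set the livers of male mice without hepatocyte Jak2 against those of female mice with the same deletion, and asked which autosomal genes still differed between the sexes. Its members were 6 of the 12 arrays of the study, 3 male KO and 3 female KO, chosen by the sex and genotype in the labels. In KO mice Jak2 was flanked by loxP sites and Cre was expressed from the albumin promoter, so the deletion was directed to hepatocytes and the other cells of the liver kept the gene. WT animals were littermate controls of either sex, also 3 of each, and the full genotype of these controls was not given in the sources used here. All were 8 weeks old, were kept on breeder chow and came from a mixed C57Bl/6:129Sv background, with Cre from C57Bl/6. Each array held the liver RNA of 1 animal, and animals are named by their group and number. Values are log2, so 1 unit is a 2-fold difference, and each sex difference is given as male minus female, negative where females were higher. Lists of KO values run in the order male KO 114, 122 and 207 and female KO 102, 131 and 141. Lists of WT values run in the order male WT 112, 116 and 126 and female WT 119, 132 and 147.

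The liver is one of the most sexually dimorphic organs of the mouse outside the reproductive tract. Males secrete growth hormone in pulses separated by quiet intervals, and females secrete it almost continuously. Growth hormone binds its receptor on hepatocytes, the receptor activates the kinase JAK2, and JAK2 phosphorylates STAT5b, which drives male-biased genes when it is activated in pulses. Continuous growth hormone supports female-biased genes, among them the repressor Cux2 and several cytochrome P450 and sulfotransferase genes. Sex chromosomes and sex steroids can also set differences between male and female liver.

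The sex labels held on the sex-linked genes. Xist, the RNA that silences an X chromosome, lay between 3.51 and 4.47 in the 6 males and between 9.90 and 10.52 in the 6 females, and the Y-linked genes Eif2s3y, Uty and Kdm5d were higher in every male. The Jak2 probe set did not check the genotype: it read 6.61 to 7.09 in KO and 6.18 to 6.89 in WT livers, and the deleted part of the gene was not given. Some growth hormone targets were low in all 6 KO livers. Socs2, a feedback inhibitor of the pathway, read 4.38 to 5.18 in the 6 KO and 5.70 to 8.33 in the 6 WT livers, and Onecut1, which encodes the liver factor HNF6, read 5.40 to 6.17 and 7.39 to 8.89. Hepatocyte markers averaged between 12.61 and 12.81 on every array.

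Male KO 207 stood apart from the other male KO livers. Igf1, the main endocrine product of growth hormone in liver, read 5.71, 5.91 and 10.10 in the male KO livers, 5.43, 5.62 and 5.38 in the female KO livers and 10.35 to 10.78 in WT. Male KO 207 was thus near WT on Igf1, while its Socs2 (5.18), Cish (5.28) and Onecut1 (6.16) lay below every WT liver. The mean of a list of growth hormone pathway genes and targets was 7.61 in male KO 207. In the other KO livers it was 7.0 to 7.12, and in WT 7.62 to 7.82. Its correlation across genes averaged 0.991 with male WT and 0.983 with the other male KO livers. Results are therefore given with all 6 KO livers and, where they turn on this animal, without it.

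Of 19103 autosomal genes, 2 were called between male KO and female KO (0.0105%), at an adjusted p under 0.05 in limma, and both were higher in females. At an unadjusted p under 0.05, 498 genes had males higher (2.61%) and 443 had females higher (2.32%). Together these 941 genes are near the number that this threshold would pass with no sex difference in any gene. They are used below as a background and are not counted as differences. The same contrast in WT called 96 autosomal genes (0.503%), 32 with males higher and 64 with females higher. The 2 genes called in KO were not among these 96.

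Gsn encodes gelsolin, a protein that severs and caps actin filaments. It read 6.91, 7.02 and 7.10 in male KO and 9.67, 9.38 and 8.81 in female KO. The WT values were 6.56, 6.69 and 6.71 in males and 7.05, 7.09 and 7.01 in females. The female KO livers were thus high and the 9 other livers lay together, with no overlap between them. The KO sex difference was -2.27 (SE 0.16, limma adjusted p = 3.24e-06), a 4.83-fold higher level in females, and the WT difference was -0.40 (adjusted p = 0.437). The sex difference itself differed between genotypes by -1.88 (SE 0.23, limma adjusted p = 0.00275).

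Pcp4l1 encodes a small protein related to the calmodulin-binding Purkinje cell protein 4. It read 6.55, 5.80 and 6.03 in male KO and 9.20, 8.63 and 9.03 in female KO. Values in WT were 6.24, 6.46 and 5.45 in males and 6.65, 5.54 and 6.13 in females, so the WT sexes overlapped and the KO sexes did not. Its KO difference was -2.83 (SE 0.29, limma adjusted p = 3.06e-04), a 7.12-fold higher level in females, against -0.06 in WT. The difference between genotypes was -2.77 (SE 0.41, limma adjusted p = 0.0166), and it was kept in 7 of the 12 fits that left out 1 animal. Both KO sex differences were called in 12 of 12 such fits, and male KO 207 lay with the other male KO livers on both genes.

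**Figure D1:**
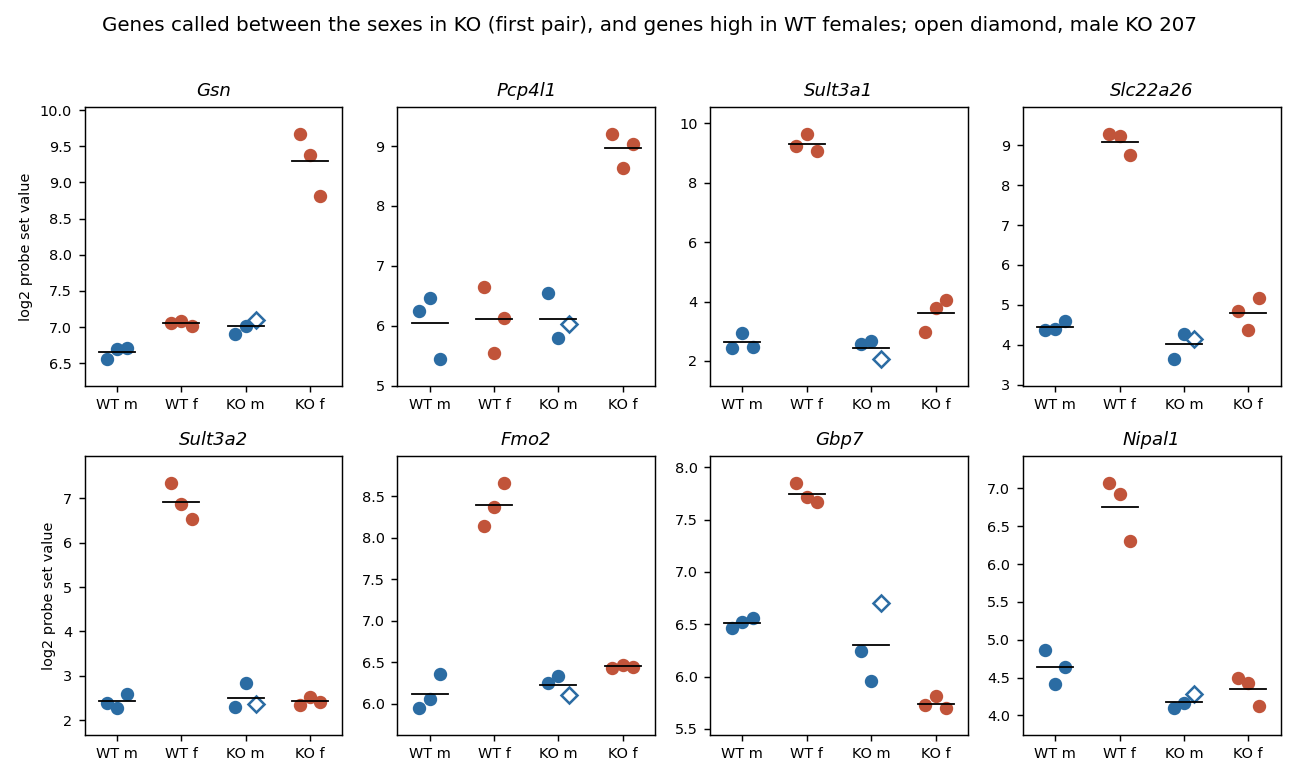
Log2 probe set value (vertical axis) of 8 genes in each of the 12 livers, grouped as WT males, WT females, KO males and KO females, with a line at each group mean and male KO 207 as an open diamond. Gsn and Pcp4l1 were high in female KO livers alone, while the other genes were high in WT females and read 2.34 to 6.47 in female KO.

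The dimorphism of WT liver was mostly not seen in KO. Of the 96 genes called between the WT sexes, 0 were called between the KO sexes by limma, in either direction, and this was also 0 without male KO 207. At an unadjusted p under 0.05, 34 differed in the WT direction, 8 of the 32 male-higher and 26 of the 64 female-higher genes, and 2 differed in the opposite direction. Without male KO 207, 20 differed in the WT direction and 1 in the opposite one. The same counts over all 19103 autosomal genes were 636 and 305, or 736 and 469 without that animal. The size of the difference was smaller in KO for all 96, and since the genes were chosen on their WT difference, that choice favours a smaller KO value. Their median WT difference was 1.11 in size, and the median KO difference in the WT direction was 0.23, or 0.15 without male KO 207. Over all autosomal genes the corresponding medians were 0.10 and 0.02.

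What remained pointed more often the WT way. In KO 72 of the 96 (75%) kept the sign of the WT difference, against 55.6% of all autosomal genes, and without male KO 207 the count was 64 (66.7%). The ranges of the 3 male and 3 female KO livers did not overlap for 33 genes in the WT direction and for 6 in the opposite one. Without male KO 207, where fewer male livers make overlap less likely, these counts were 34 and 12. Over all 19103 autosomal genes they were 1136 and 686, or 2655 and 1783 without that animal. By sex, the ranges of all 6 KO livers did not overlap for 5.25% of autosomal genes with males higher and 4.29% with females higher. The KO difference reached at least 50% of the WT one, in the same direction, for 20 genes, and for 10 without male KO 207. Over all 19103 autosomal genes, whose WT differences were mostly small, it did so for 6989, and for 7492 without that animal. These are larger shares than among the 96, so this count does not set the 96 apart as keeping their difference.

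**Figure D2:**
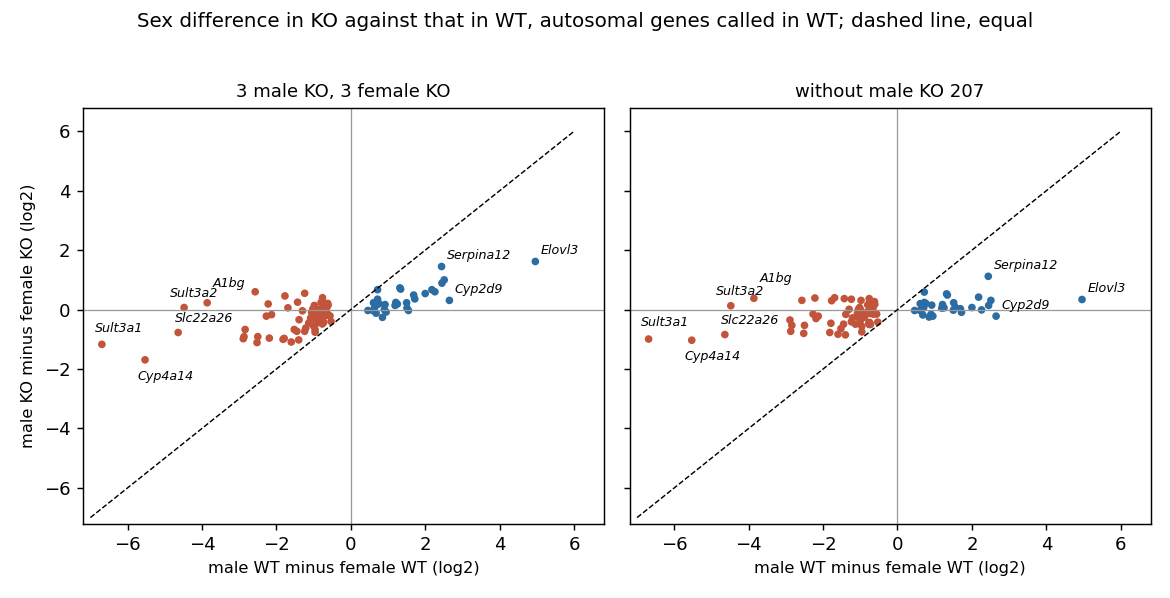
Male minus female difference (log2) in KO on the vertical axis against that in WT on the horizontal axis, for the 96 autosomal genes called in WT (blue, males higher; red, females higher), with all 6 KO livers on the left and without male KO 207 on the right. Every gene lies nearer 0 in KO than in WT, and the KO differences run from -1.69 to 1.62 on the left and from -1.03 to 1.12 on the right.

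The livers can also be placed on a scale from 0, the mean of WT females, to 1, the mean of WT males. The median position over the 96 genes was 0.44, 0.43 and 0.76 in male KO 114, 122 and 207. It was 0.41, 0.30 and 0.31 in female KO 102, 131 and 141. Male KO 114 and 122 thus lay close to female KO 102, and both sexes lay between the WT sexes. The genes and the scale come from the same WT livers, and that choice favours positions between 0 and 1. The spread over genes was wide, with quartiles of 0.16 and 0.72 in male KO 114 and of -0.07 and 0.72 in female KO 141. On the 32 male-higher genes the positions were 0.38, 0.28 and 0.74 in male KO and 0.31, 0.20 and 0.29 in female KO, on the female side of the midpoint in every KO liver but male KO 207. For the 64 female-higher genes they were 0.55, 0.55 and 0.77 in males and 0.46, 0.38 and 0.31 in females.

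**Figure D3:**
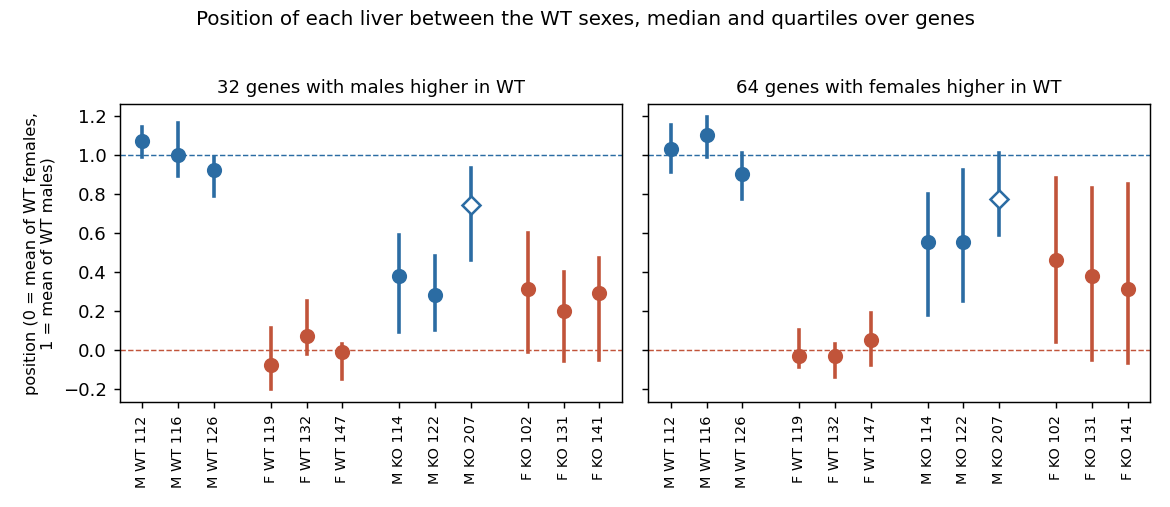
Median position of each of the 12 livers over the 32 genes higher in WT males (left) and the 64 higher in WT females (right), with lines from the lower to the upper quartile over genes, where 0 is the mean of WT females and 1 that of WT males. The group means of the WT livers are 0 and 1 on each gene by construction, male KO 114 and 122 lie beside the female KO livers on the left, and male KO 207 (open diamond) lies at 0.74 and 0.77.

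The sex difference itself was called as different between genotypes for 11 autosomal genes (0.0576%) in limma, 9 of which were among the 96. Those 9 were all female-higher in WT: Sult3a1, Sult3a2, Slc22a26, Atp6v0d2, Fmo2, Nipal1, Gbp7, Sult1c2 and Grid1, the last of which lies outside the naming rule. Without male KO 207 the count was 54 (0.283%), 24 of them among the 96, and it then included male-higher genes. The WT difference that chose the 96 also enters this contrast, which favours such an overlap.

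One set of female-specific genes was lost from female KO livers. Sult3a1, a cytosolic sulfotransferase, read 9.22, 9.64 and 9.08 in WT females and 2.45, 2.94 and 2.47 in WT males. In KO it read 2.57, 2.66 and 2.07 in males and 2.99, 3.78 and 4.06 in females. Every KO female thus lay above every KO male, at a level far below that of WT females. These KO values all lay below the array medians of 5.0 to 5.07, at the dim end of the scale. The difference fell in size from -6.69 (SE 0.24, limma adjusted p = 5.31e-10) in WT to -1.17 (SE 0.24, adjusted p = 0.295) in KO, and the change between genotypes was 5.52 (SE 0.35, adjusted p = 1.48e-06). The KO difference of Sult3a1 was called without female KO 102, the lowest of the female KO livers.

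Slc22a26, an organic anion transporter of the SLC22 family, read 9.28, 9.23 and 8.75 in WT females and 4.36, 4.39 and 4.59 in WT males. The KO values were 3.65, 4.28 and 4.15 in males and 4.85, 4.36 and 5.18 in females, which did not overlap. Its sex difference was -4.64 in WT and -0.77 (SE 0.20, limma adjusted p = 0.559) in KO, and it changed by 3.87 (SE 0.29, adjusted p = 1.08e-05). Sult3a2, a close relative of Sult3a1 with which it may share probe signal, read 2.34, 2.53 and 2.42 in female KO and 2.29, 2.84 and 2.37 in male KO. The KO sexes thus overlapped on Sult3a2, after WT females had read 7.34, 6.86 and 6.52 and WT males 2.39, 2.28 and 2.6.

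Fmo2, a flavin-containing monooxygenase, read 8.14, 8.37 and 8.66 in WT females and 6.43, 6.47 and 6.44 in female KO. Male KO livers read 6.25, 6.34 and 6.11, just below the KO females, a difference of -0.22 (95% interval -0.51 to 0.08). Nipal1, a magnesium transporter, went from 7.07, 6.92 and 6.30 in WT females to 4.50, 4.43 and 4.13 in KO females, overlapping the KO males at 4.10, 4.17 and 4.28. A1bg, a plasma glycoprotein of the immunoglobulin family, varied widely among WT females (8.61, 7.65 and 4.80) and read between 2.80 and 3.47 in all 6 KO livers. Cux2 read 6.48, 6.61 and 5.94 in WT females and 5.49 to 5.70 in all 6 KO livers, inside the WT male range of 5.44 to 5.71.

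Gbp7, an interferon-inducible GTPase, crossed over. WT females read 7.85, 7.72 and 7.67 against 6.46, 6.52 and 6.56 in WT males, while female KO livers read 5.73, 5.81 and 5.70, below all male KO livers at 6.24, 5.96 and 6.70. The WT difference of -1.24 (SE 0.14, limma adjusted p = 6.56e-04) stood against 0.55 (SE 0.14, adjusted p = 0.548) in KO, and the change was 1.79 (SE 0.20, adjusted p = 0.00153). Sult1c2, another sulfotransferase, closed from -1.02 in WT to 0.02 in KO, with male KO at 6.15, 6.28 and 6.09 and female KO at 5.92, 6.23 and 6.31. Atp6v0d2, a subunit of the vacuolar proton pump, closed from both sides: male KO livers read 5.12, 5.41 and 4.86, above WT males at 3.64, 4.25 and 4.47, and female KO livers 5.50, 5.89 and 5.99, below WT females at 7.23, 6.70 and 6.97.

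The STAT5 consensus, written with the letters TTCNNNGAA, was looked for on both strands of the RefSeq promoter windows (build GRCm38.p6, 250 bases before to 50 after each start). It was present for 9 of the 44 matched female-higher genes (20.5%) and 3 of the 26 matched male-higher genes (11.5%), against 9.03% of 14958 matched autosomal genes. The letters ATCGAT, bound by HNF6 and CUX2, were present for 3 of 44 (6.82%) and 2 of 26 (7.69%), against 0.983%. A match is a description of the letters in the window and was not tested as a site. The 250 bases before the start are shown, with the matches in capitals, for 5 genes with a match whose female level was lost. Pcp4l1, whose window held neither motif, is also shown. These 5 do not stand for all such genes, since Sult3a2, Nipal1 and Atp6v0d2 were not among the genes with a match. Another window of Cux2, not shown, held neither motif. They lie at chr10:33857472-33857721 on the plus strand for Sult3a1, chr19:7802668-7802917 (minus) for Slc22a26, chr15:60921271-60921520 (minus) for A1bg, chr3:142530086-142530335 (plus) for Gbp7, chr5:122047826-122048075 (minus) for 1 of the starts of Cux2 and chr1:171196269-171196518 (minus) for Pcp4l1.
Sult3a1: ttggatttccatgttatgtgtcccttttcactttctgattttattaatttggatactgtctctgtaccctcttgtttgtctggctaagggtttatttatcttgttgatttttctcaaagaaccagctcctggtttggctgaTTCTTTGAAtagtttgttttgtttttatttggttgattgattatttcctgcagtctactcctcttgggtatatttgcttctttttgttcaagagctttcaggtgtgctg
Slc22a26: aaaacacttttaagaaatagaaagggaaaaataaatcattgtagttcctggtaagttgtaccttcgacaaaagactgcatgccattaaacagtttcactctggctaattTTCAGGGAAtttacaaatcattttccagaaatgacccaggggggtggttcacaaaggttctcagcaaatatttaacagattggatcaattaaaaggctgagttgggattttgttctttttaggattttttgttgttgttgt
A1bg: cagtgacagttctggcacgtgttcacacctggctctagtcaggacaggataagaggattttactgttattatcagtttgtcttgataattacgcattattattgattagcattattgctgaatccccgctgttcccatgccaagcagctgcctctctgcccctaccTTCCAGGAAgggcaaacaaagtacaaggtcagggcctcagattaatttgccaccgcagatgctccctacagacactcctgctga
Gbp7: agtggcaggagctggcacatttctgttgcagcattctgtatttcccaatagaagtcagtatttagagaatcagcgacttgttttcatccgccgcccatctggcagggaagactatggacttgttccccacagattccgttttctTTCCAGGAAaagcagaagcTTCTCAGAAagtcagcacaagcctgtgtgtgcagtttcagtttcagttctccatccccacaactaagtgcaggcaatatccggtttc
Cux2: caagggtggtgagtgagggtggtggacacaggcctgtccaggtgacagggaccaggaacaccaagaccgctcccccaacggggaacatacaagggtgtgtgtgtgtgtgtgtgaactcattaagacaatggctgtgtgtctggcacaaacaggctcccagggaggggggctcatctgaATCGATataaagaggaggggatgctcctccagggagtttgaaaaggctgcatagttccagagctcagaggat
Pcp4l1: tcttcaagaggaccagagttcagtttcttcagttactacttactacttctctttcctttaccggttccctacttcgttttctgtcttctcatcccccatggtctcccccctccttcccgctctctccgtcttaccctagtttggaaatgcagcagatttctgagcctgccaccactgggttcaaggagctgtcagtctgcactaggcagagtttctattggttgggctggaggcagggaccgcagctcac

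The match in Sult3a1 began at base -109 from the start, in Slc22a26 at -141 and in A1bg at -84. Gbp7 held a pair, at -106 and -87. The Cux2 window held ATCGAT at -72. Fmo2 and Hamp2 held TTCNNNGAA at 12 and -94.

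Other genes with higher values in WT females read high in both KO sexes. Cyp4a14, a fatty acid omega-hydroxylase, read 4.58, 4.04 and 6.62 in WT males and 9.86, 10.62 and 11.36 in WT females. In KO it read 10.10, 11.11 and 8.65 in males and 11.53, 11.19 and 12.19 in females. The sexes still did not overlap, and male KO 207 was the lowest of the 6. The difference went from -5.53 (SE 0.63, limma adjusted p = 5.07e-04) to -1.69 (SE 0.63, adjusted p = 0.987), and the change of 3.85 was not called (adjusted p = 0.256) but was without male KO 207 (4.50, adjusted p = 0.0232). Its relatives Cyp4a10 and Cyp4a31, which may share probe signal with it, differed by -0.91 and -1.11 in KO, against -2.87 and -2.52 in WT.

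Hamp2, a hepcidin family member, read 7.75, 7.65 and 9.35 in WT males, 11.35, 11.59 and 9.59 in KO males and 11.66, 11.96 and 11.83 in KO females. Hao2, a peroxisomal hydroxyacid oxidase, read 7.96, 8.26 and 3.07 in male KO and 8.74, 8.61 and 8.84 in female KO, and 3.02 to 3.24 in WT males. Cyp2a22, a P450 of the Cyp2a family, read 9.65, 9.66 and 5.39 in male KO, 10.39, 10.23 and 10.68 in female KO and 5.03 to 5.19 in WT males. On Hao2 and Cyp2a22 male KO 207 lay at or beside WT males, and the other male KO livers lay just under the females. Without it the KO differences were -0.62 and -0.78 (limma adjusted p = 0.744 and 0.426), where WT differed by -4.29 and -3.63 (adjusted p = 0.0576 for both, so not called).

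Cyp2b9, a P450 of the Cyp2b family, split both KO sexes. Its WT difference of -6.86 was not called (limma adjusted p = 0.141), nor were those of Cyp2b13 (-6.01, adjusted p = 0.223) and Cyp17a1 (-2.41, adjusted p = 0.301). It read 11.18, 11.13 and 4.50 in male KO and 11.51, 3.87 and 11.80 in female KO, against 4.17 to 4.49 in WT males and 11.17 to 11.34 in WT females. Cyp2b13, its close relative, read 10.07, 10.09 and 2.96 and then 10.58, 3.38 and 10.72. Male KO 207 and female KO 131 were thus at the WT male level of both genes, and the other 4 KO livers above 10. The spread leaves the KO difference of Cyp2b9 undetermined, at -0.13 with a 95% interval of -3.98 to 3.73. Cyp17a1, a steroid hydroxylase and lyase, read 10.55, 10.50 and 6.39 in male KO and 10.42, 9.81 and 10.20 in female KO, above all WT livers (5.61 to 9.28) in every KO liver but male KO 207.

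**Figure D4:**
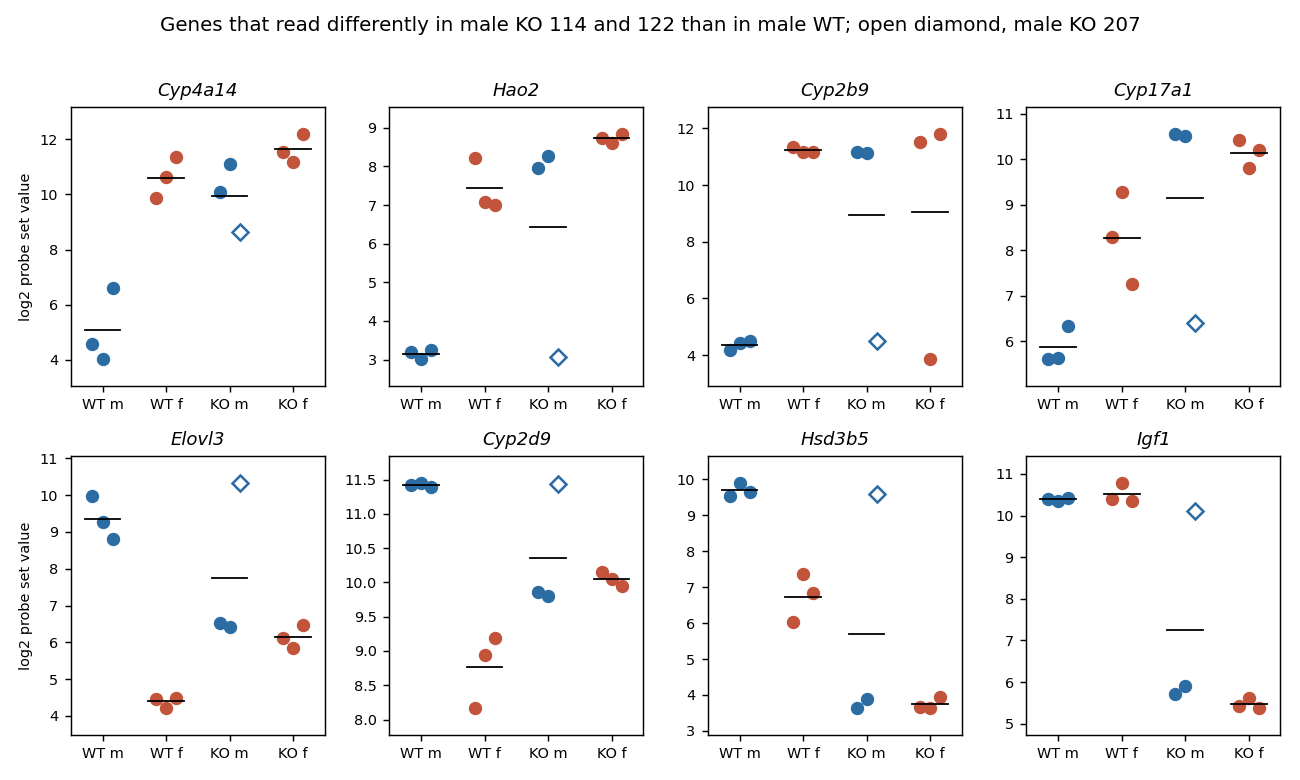
Log2 probe set value (vertical axis) of 8 genes in each of the 12 livers, grouped as WT males, WT females, KO males and KO females, with a line at each group mean and male KO 207 as an open diamond. Male KO 114 and 122 lay beside or just below the female KO livers, or just above them, apart from female KO 131 on Cyp2b9, while male KO 207 lay near WT males on all but Cyp4a14, where it read 8.65.

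Several male-higher genes of WT read between the WT sexes, or at or below the WT female level, in the KO livers other than male KO 207. Others read at the WT male level in both KO sexes, such as Grhpr, a glyoxylate reductase, at 10.08, 10.13 and 10.09 in male KO and 10.23, 9.98 and 10.21 in female KO, against 9.99 to 10.18 in WT males and 9.31 to 9.65 in WT females. Of the 32 male-higher genes, 10, 8 and 22 were nearer the WT male mean in male KO 114, 122 and 207, and 13, 5 and 8 in female KO 102, 131 and 141. Elovl3, a very-long-chain fatty acid elongase, read 9.97, 9.27 and 8.82 in WT males and 4.46, 4.22 and 4.50 in WT females. In KO it read 6.53, 6.43 and 10.33 in males and 6.11, 5.85 and 6.46 in females. The KO difference was 1.62 (SE 0.71, limma adjusted p = 0.987) with all livers and 0.34 (SE 0.25, adjusted p = 0.913) without male KO 207. The WT difference was 4.96, and its change was -3.33 (adjusted p = 0.559) with that animal and -4.62 (adjusted p = 7.23e-06) without it.

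Cyp2d9, a male-specific steroid hydroxylase, followed the same order. It read 11.42, 11.45 and 11.39 in WT males, 8.17, 8.94 and 9.19 in WT females, 9.86, 9.80 and 11.43 in male KO and 10.15, 10.05 and 9.95 in female KO. Without male KO 207 all 3 female KO livers were above both male ones, and the difference was -0.22 (95% interval -0.67 to 0.22, limma adjusted p = 0.94) after 2.65 in WT. Gstp1, a glutathione transferase, read 11.30, 11.34 and 13.40 in male KO and 11.05, 10.93 and 11.05 in female KO, against 12.91 to 13.61 in WT males and 10.60 to 10.98 in WT females. Selenbp2, a selenium-binding protein, read 7.92, 7.88 and 9.73 and then 8.10, 7.96 and 7.68, with male KO 114 and 122 inside the female KO range. Susd4, a complement regulator, read 5.04, 5.01 and 6.43 and then 4.92, 4.82 and 5.13.

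Hsd3b5, a male-biased steroid dehydrogenase, was not called in WT (2.96, limma adjusted p = 0.339), but was low in every KO liver except male KO 207. It read 3.65, 3.88 and 9.59 in male KO and 3.67, 3.64 and 3.93 in female KO, against 9.55 to 9.90 in WT males and 6.02 to 7.36 in WT females. Cyp7b1, an oxysterol hydroxylase, read 6.60, 6.43 and 10.18 in male KO and 7.40, 7.15 and 7.50 in female KO, so that without male KO 207 the females were the higher sex (-0.84, adjusted p = 0.57). The WT difference of Cyp7b1 was 2.92 (adjusted p = 0.0891), and its change without that animal was -3.76 (limma adjusted p = 1.45e-04). Cyp4a12a, a fatty acid hydroxylase whose WT difference of 5.03 was not called (adjusted p = 0.0815), read 7.18, 5.61 and 10.94 in male KO and 6.91, 7.46 and 7.11 in female KO, and Mup21, a major urinary protein, 6.02, 6.38 and 8.44 and then 5.51, 6.02 and 6.65.

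The list of 35 male-biased liver genes had a median KO difference of 0.67 with all livers and 0.02 without male KO 207, after 1.19 in WT. At an unadjusted p under 0.05, 9 were higher in KO males and 0 in KO females, which became 3 and 2 without that animal. For the 30 female-biased genes the median was -0.49, or -0.02 without male KO 207, after -1.80 in WT, with 1 and 10 at that threshold, or 0 and 7. Of these lists 0 members were called in KO. Over all autosomal genes the median KO difference was 0.00. At an unadjusted p under 0.05, 2.61% of them were higher in KO males and 2.32% in KO females. Without male KO 207 these shares were 3.51% and 2.8%.

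Some differences kept the WT direction and over 50% of the WT size with all 6 KO livers, without passing the test. Cyp2c37, a P450 that oxidises arachidonic acid, read 11.21, 10.54 and 10.08 in male KO and 11.72, 11.59 and 11.79 in female KO, which did not overlap. Its difference was -1.09 (SE 0.21, limma adjusted p = 0.181) in KO and -1.60 (adjusted p = 0.00197) in WT. Cyp39a1, an oxysterol hydroxylase of bile acid synthesis, read 7.79, 7.04 and 6.90 and then 8.41, 7.98 and 8.39, a difference of -1.02 (adjusted p = 0.341) against -1.40 in WT. Both were called without male KO 114, the highest of the male KO livers on either gene.

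Serpina12, the serpin called vaspin, kept a male-higher difference when male KO 207 was set aside. It read 5.46, 5.73 and 6.59 in male KO and 3.97, 5.04 and 4.42 in female KO, a difference of 1.45 (SE 0.38, limma adjusted p = 0.548), or 1.12 without male KO 207, after 2.44 in WT. F2r, the thrombin receptor, differed by 0.67 in KO and 0.72 in WT (KO adjusted p = 0.195). Oat, ornithine aminotransferase, differed by -0.76 and -0.96, and the sulfotransferase Sult1d1 by -0.67 and -0.96. Cyp8b1, the sterol hydroxylase that sets the share of cholic acid among bile acids, was not called in WT (1.01, adjusted p = 0.0862) and differed by 1.04 in KO (adjusted p = 0.37), with males at 10.70, 10.29 and 10.14 and females at 9.61, 9.25 and 9.13.

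Among the factors that carry sex-biased expression, Trim24, a transcriptional co-regulator, differed by -0.73 in KO and -1.24 in WT, and Tox, a chromatin protein, by -0.46 and -0.93. Neither KO difference was called (limma adjusted p = 0.766 and 0.987). Without male KO 207 they were smaller, at -0.41 for Trim24 and -0.26 for Tox (limma adjusted p = 0.719 and 0.877). Trim24 read 6.87, 7.36 and 6.16 in male KO and 7.63, 7.24 and 7.70 in female KO, with male KO 122 inside the female range. Bcl6, a repressor that competes for STAT5 sites, read 7.0, 8.24 and 8.98 in male KO and 7.79, 7.69 and 8.25 in female KO, overlapping in KO where WT females (5.15 to 5.53) lay below WT males (5.80 to 8.58). Esr1, the oestrogen receptor, read 7.12, 6.82 and 6.81 in male KO and 6.78, 6.45 and 6.51 in female KO, against 7.70 to 8.61 in WT females and 7.09 to 7.54 in WT males. Of 33 hepatic transcription factors 0 were higher in KO males and 4 in KO females at an unadjusted p under 0.05, and 0 were called. Over all autosomal genes the shares at that threshold were 2.61% and 2.32%.

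In the growth hormone pathway itself 0 genes were called between the KO sexes. Of 23 genes of the pathway and its targets, 2 were higher in males and 1 in females at an unadjusted p under 0.05, against 2.61% and 2.32% of all autosomal genes, with a median of 0.03. The receptor gene Ghr differed by -0.12 (95% interval -0.35 to 0.11) and Stat5b by -0.10 (-0.45 to 0.25). Socs2, higher in WT females (-1.77, limma adjusted p = 0.024), read 4.92, 4.50 and 5.18 in male KO and 4.42, 4.42 and 4.38 in female KO, a difference of 0.46 (-0.24 to 1.16). Igfbp3, a carrier of IGF1, read 7.47, 7.61 and 7.53 in male KO and 7.13, 7.16 and 6.81 in female KO, a difference of 0.50 (adjusted p = 0.824).

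Drug-metabolising families gave some differences with females higher. Among 68 P450 genes of families 1 to 4, 10 were higher in KO females and 2 in KO males at an unadjusted p under 0.05, where 2.32% and 2.61% of all autosomal genes were, 0 were called, and the median was -0.02. The 10 included Cyp1a2, which metabolises caffeine, at 11.69, 11.38 and 11.78 in male KO and 12.11, 12.14 and 12 in female KO. Its difference was -0.47 in KO (adjusted p = 0.414) and 0.03 in WT. Cyp2f2, a P450 of periportal hepatocytes, was one of the 2 with males higher, at 12.37, 12.10 and 12.66 against 11.30, 11.08 and 11.85. Of 16 sulfotransferases, 4 were higher in KO females and 0 in KO males. One of them, Sult2a6, rested on female KO 141 alone, which read 7.25 where the other 11 livers read 2.49 to 3.16.

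Without male KO 207 the KO contrast called 10 autosomal genes in limma (0.0523%), Gsn and Pcp4l1 among them, 6 with males higher (0.0314%) and 4 with females higher (0.0209%). Krt20, an intermediate filament protein, read 5.66 and 5.96 in male KO 114 and 122, 3.51 in male KO 207 and 4.10, 3.88 and 4.38 in female KO. Anxa2, a membrane-binding annexin, read 7.85 and 7.84, then 5.72, and 6.66, 6.53 and 6.27 in female KO. The differences without male KO 207 were 1.69 (SE 0.18, limma adjusted p = 4.31e-04) and 1.36 (SE 0.15, adjusted p = 6.23e-04), and with all livers 0.93 and 0.65, neither of them called.

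Cidec, a lipid droplet protein, read 6.72 and 6.83 in male KO 114 and 122, 4.66 in male KO 207 and 5.31, 5.30 and 5.54 in female KO, a difference of 1.39 (limma adjusted p = 0.00477) without male KO 207. Lcn2, the iron-siderophore binding protein lipocalin 2, differed by 1.28 (adjusted p = 0.0303) and Col1a2, a chain of type I collagen, by 0.85 (adjusted p = 0.0452). With females higher, Cyp26a1, which degrades retinoic acid, read 5.22 and 5.04 in male KO 114 and 122, 6.44 in male KO 207 and 7.21, 7.37 and 8.40 in female KO. Its difference was -2.53 (adjusted p = 0.0376) without male KO 207 and -2.09 (adjusted p = 0.295) with all livers, and all 3 male KO livers lay below the female ones. The lipid transporter gene Abca8a differed by -1.11 (adjusted p = 0.0374), with male KO 207 at 9.31, above all female KO livers.

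**Figure D5:**
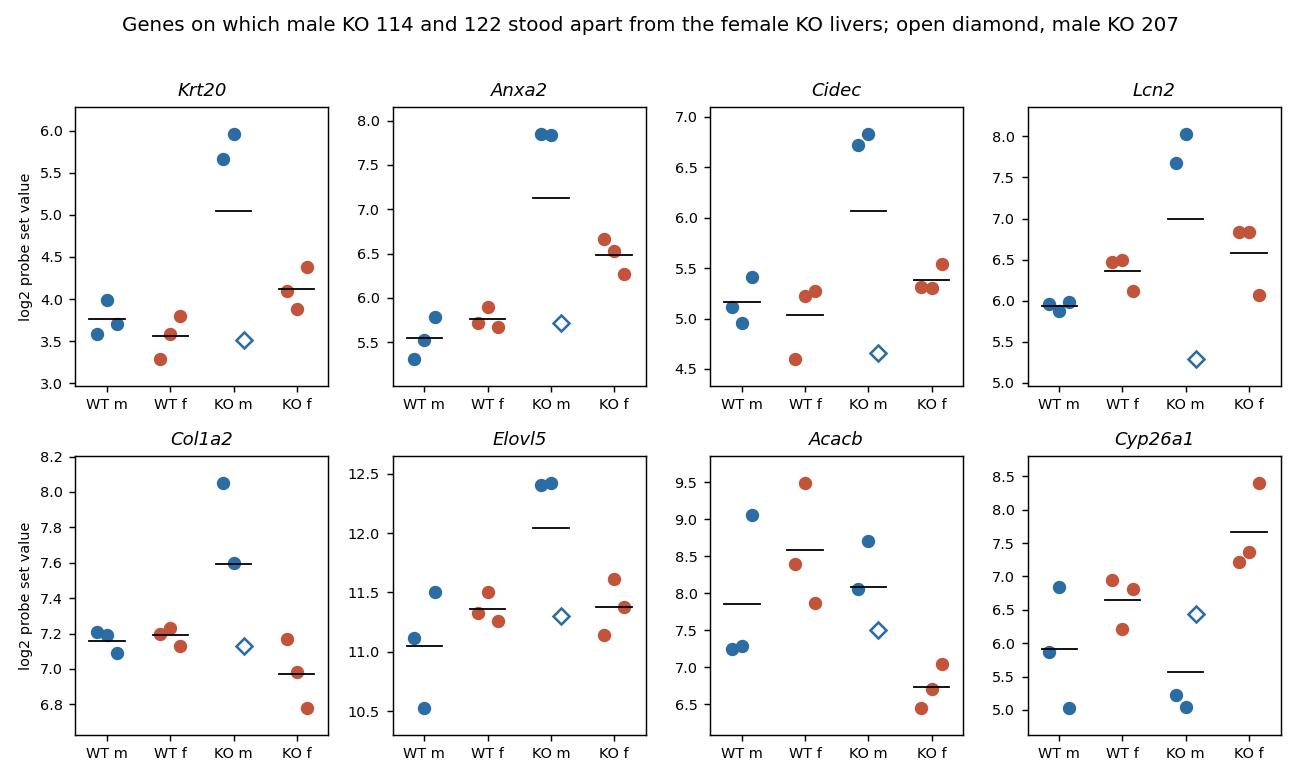
Log2 probe set value (vertical axis) of 8 genes in each of the 12 livers, grouped as WT males, WT females, KO males and KO females, with a line at each group mean and male KO 207 as an open diamond. Male KO 114 and 122 lay above all female KO livers on every gene but Cyp26a1, where they lay below, and male KO 207 lay within or under the range of WT males on the 5 genes from Krt20 to Col1a2.

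Genes of fatty acid synthesis leaned to KO males. Of 22 members, 4 were higher in males and 0 in females at an unadjusted p under 0.05, against 2.61% and 2.32% of all autosomal genes. Without male KO 207 the counts were 13 and 0, against 3.51% of all autosomal genes with males higher and 2.8% with females higher. The median KO difference of the 22 members was 0.41, or 0.80 without male KO 207, after -0.43 in WT, and 0 were called. Their mean overlapped between the KO sexes, at 10.33, 10.49 and 9.59 in male KO and 9.41, 9.93 and 9.76 in female KO. It also varied within the WT sexes, at 9.19, 9.22 and 10.3 in males and 9.82, 10.37 and 9.79 in females. Acacb, the mitochondrial acetyl-CoA carboxylase, read 8.06, 8.71 and 7.50 in male KO and 6.45, 6.70 and 7.04 in female KO, and the elongase Elovl5 12.40, 12.42 and 11.30 and then 11.14, 11.61 and 11.38. Acacb differed by 1.36 with all livers (limma adjusted p = 0.93), and its KO sexes did not overlap. Among 30 genes of lipid uptake and storage, 4 were higher in males and 2 in females, or 10 and 1 without male KO 207, with Cidec the 1 called. Vldlr, a lipoprotein receptor, went the other way, at 6.55, 6.19 and 4.89 in male KO and 7.21, 7.21 and 7.41 in female KO.

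Interferon genes leaned to males in KO and to females in WT, and cholesterol genes leaned to females in WT and to neither sex in KO. Of 23 interferon and antigen presentation genes, 7 were higher in KO males and 0 in KO females at an unadjusted p under 0.05, against 2.61% and 2.32% of all autosomal genes. In WT the counts were 1 and 10, against 4.18% and 5.33%, and the median was 0.24 in KO and -0.41 in WT. The change of the sex difference between genotypes was towards males for 10 of the 23 and towards females for 0 at an unadjusted p under 0.05, against 3.16% and 2.08% of all autosomal genes, and 0 were called in limma, or 3 without male KO 207. Irf7, a transcription factor of the interferon response, read 7.05, 7.05 and 7.12 in male KO and 6.83, 6.50 and 6.25 in female KO, against 6.79 to 7.28 in WT males and 7.23 to 7.57 in WT females. Psmb8, an immunoproteasome subunit, read 6.06, 6.20 and 6.24 and then 5.75, 5.63 and 5.89. Of 17 cholesterol synthesis genes, 12 were higher in WT females and 0 in WT males, and in KO 0 passed that threshold in either direction, with a median of -0.61 in WT and 0.04 in KO. For the change between genotypes 8 of the 17 passed it towards males and 0 towards females, and 0 were called. None of these members was called in KO.

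Markers of other liver cells moved with some of these lists. Among all autosomal genes, 2.61% were higher in KO males and 2.32% in KO females at an unadjusted p under 0.05. Of 8 stellate cell markers, 5 were higher in KO males at that threshold (Col1a1, Col3a1, Dcn, Pdgfrb and Reln). Another 1 of the 8, the vitamin A enzyme Lrat, was higher in KO females. The mean of the 8 markers lay between 7.0 and 7.15 in male KO and between 6.66 and 6.95 in female KO. Of 8 endothelial markers 3 were higher in KO males, and their mean lay between 7.21 and 7.48 against 7.06 to 7.19. Of 7 Kupffer cell markers 0 passed that threshold, with means of 6.27 to 6.96 and 6.59 to 6.72, and markers of bile duct, B, T, NK, neutrophil, erythroid, pancreas, adipose and kidney cells gave 1 gene at that threshold, Cd4. None was called. In bulk liver a different number of cells and a different amount of RNA per cell cannot be told apart, and the part of these cells in the differences of Col1a2 and the interferon genes was not tested.

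In the other lists 0 genes were called between the KO sexes with all livers. At an unadjusted p under 0.05, which 2.61% of all autosomal genes passed with males higher and 2.32% with females higher, cell cycle genes gave 2 of 23 with males higher and 0 with females higher, or 8 and 0 without male KO 207. Of 32 fatty acid oxidation genes and PPARA targets, 6 were higher in KO females, Cyp4a14, Cyp4a31, Acot3, Acot4, Acadm and Acadl, and 0 in KO males, but without male KO 207 the counts were 0 and 1. Glutathione transferases gave 3 with males higher and 1 with females higher of 19, organic ion transporters 0 and 3 of 38, and bile acid genes 1 and 2 of 18. Acute phase, complement, circadian clock, serpin, glucuronosyltransferase, hydroxysteroid dehydrogenase, flavin monooxygenase, major urinary protein, thioesterase and xenobiotic receptor lists each gave at most 3 in a direction, which for the 16 clock genes and the 16 xenobiotic receptor targets was 3 with females higher, or 0 and 3 without male KO 207.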

How the data were processed

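Total RNA of 12 mouse livers, 1 array per animal, was labelled with biotin and hybridised, per the labels' protocols. The submitters' processing notes name Affymetrix Expression Console. Which summary algorithm, version or annotation it ran with is not stated in the labels used here. The authors deposited log2 summaries per probe set, from 1.22 to 14.82, with array medians between 5.0 and 5.07. No scaling was added to them. Precision is limited by the number of arrays.

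Of 35557 probe sets, 21789 had 1 symbol in the platform's annotation, 1621 had several and 12147 had none. Probe sets with 1 symbol were kept, and the one with the highest mean stood for a gene, which left 19938 genes, 19103 of them autosomal in RefSeq GRCm38.p6. No filter was set on dim genes. Near-identical genes of the sulfotransferase, Cyp2b, Cyp2c, Cyp4a and major urinary protein families can share probe signal.

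A model with 4 group means was fitted to the 12 arrays with lmFit and eBayes of limma 3.58.1 (R 4.3.3), with 8 residual and 6.42 prior degrees of freedom, and was tested on simulated data. The contrasts were male KO minus female KO, male WT minus female WT and their difference. P-values are two-sided, adjusted by Benjamini and Hochberg over all 19938 genes, and a gene was called under 0.05. The fit without male KO 207 had 7 residual degrees of freedom. Animal numbers are unique to each animal and litters are not given, so animals were not paired.

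Up to 12 called autosomal genes in each direction could be named for the KO contrast, with and without male KO 207, up to 10 for the WT contrast and up to 8 for the difference, besides a fixed set of growth hormone and sex-biased genes and the leading members of 25 gene lists. Predicted genes were skipped. Other genes named, such as Cyp2c37, Cyp39a1, Oat, F2r, Igfbp3, Grhpr and Cyp1a2, were chosen after their values were seen. The comparison, the lists and 12 sets of cell type markers were chosen with earlier results of these data known. Some listed genes, such as Prlr, Sult2a1, Cyp2a4, Cyp3a41a, Mup7, Mup20 and Serpina1e, were not analysed here. Alternatives were other normalizations, probe set rules, variance priors, array weights, thresholds and leaving out each animal, and the KO arrays alone without male KO 207 were fitted after seeing the data.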

Additional observations from a re-analysis of the deposited data

Results flagged for a closer look

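For 10 named genes the sex difference in KO differed from that in WT by limma at an adjusted p under 0.05. Of these, 8 had a positive change of the male minus female difference: 5.52 for Sult3a1, 4.55 for Sult3a2, 3.87 for Slc22a26, 2.18 for Atp6v0d2, 2.05 for Fmo2, 1.96 for Nipal1, 1.79 for Gbp7 and 1.04 for Sult1c2. Gsn and Pcp4l1 had a negative change, of -1.88 and -2.77.

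Among 13768 probe sets that were left out of the gene comparisons, 3 with no gene in the probe table differed between the KO sexes at an adjusted p under 0.05 in limma. Probe set 10608138 was higher in males, by 4.62 in KO and 4.88 in WT. Probe set 10342165 differed by 1.97 in KO, with males at 5.55, 5.93 and 5.90 and females at 3.71, 3.61 and 4.15, and by 0.03 in WT. Probe set 10340741 differed by -0.84 in KO, with males at 5.45, 5.87 and 5.63 and females at 6.53, 6.41 and 6.52, and by -0.20 in WT.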

How the results depend on the processing

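Gsn and Pcp4l1 were called in KO under every alternative run. With 1 animal left out, the autosomal calls ranged from 2 to 10 in KO, from 37 to 184 in WT and from 8 to 54 for the difference of the sex differences, and the genes called in WT and also in KO in the same direction ranged from 0 to 3. The KO count was 10 without male KO 207, 5 without male KO 114 (with Cyp2c37, Cyp39a1 and Gadd45a) or female WT 132 (with Cyp8b1, Ngef and Olfr320) and 4 without female KO 141 (with Cyp2f2 and Paqr9). The WT count was 162 with array weights, 42 at an adjusted p under 0.01 and 54 with at least a 2-fold difference, and the difference of sex differences gave 17 calls with array weights. The KO arrays alone without male KO 207, chosen after seeing the data, gave 19 calls, 1 of them called in WT in the same direction. Genes called in WT and also in KO in the opposite direction numbered 0 throughout. The cause of these changes was not tested, beyond the fewer animals or stricter threshold of the setting. No paired analysis was possible because the labels give each animal a number of its own. With 3 animals per group, and 2 without male KO 207, a difference that was not called is not shown to be absent.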
